A study of Mus musculus with 18 samples.

Results

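Signals of the transforming growth factor beta (TGF-beta) family were followed here through 10 genes: the ligands Tgfb1, Tgfb2, Tgfb3, Bmp4 and Mstn, the inhibitors Fst and Smad7, and the direct targets Id1, Id2 and Id3. They were chosen by name, from the platform annotation of the probes, and 13 of the 45281 probes on the array carried their symbols. Of the 10 genes, 8 were detected and entered the test over 11921 genes, while Mstn and Smad7 were detected on none of the 18 arrays. Each sample was 1 Illumina MouseWG-6 bead array of total RNA from cultured mouse skeletal muscle myoblasts, the mononuclear precursors of muscle fibres. Levels below are background-corrected, quantile-normalised log2 intensities, so a difference of 1 is a doubling of the normalised signal, and levels of different probes are not set against each other.

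All cells came from mice of the strain Gata4tm1.1Sad/J, in which the gene of the zinc finger transcription factor GATA4 carries loxP sites for deletion by Cre recombinase. KO cells had received Cre by adenovirus, OE cells mouse GATA4 by retrovirus, and Wt cells nuclear β-galactosidase by adenovirus, so the kind of virus and its cargo cannot be told apart between OE and Wt. Day 3 cells had spent 3 days in differentiation medium with less serum, and day 0 cells had stayed in growth medium with basic fibroblast growth factor. The groups were KO day 3, OE day 3, Wt day 3, KO day 0, OE day 0 and Wt day 0, with 3 arrays each. The labels name no promoter for the viral genes and no source culture for each array, so the p-values rest on arrays that may not be independent cultures. The spread between arrays of the same label also held large differences in muscle and cell division genes, described below. In such bulk samples, fewer cells of a type and less RNA per cell cannot be told apart.

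TGF-beta family ligands are secreted dimers that bring together type I and type II receptor kinases, which phosphorylate SMAD proteins that then enter the nucleus. TGF-betas, activins and myostatin act mainly through one SMAD branch and BMPs through another, and in myoblast cultures both branches are known to hold back differentiation. The Id genes are classic direct targets of the BMP branch, and their proteins bind E proteins and so keep muscle factors such as MyoD from binding DNA. Follistatin, from Fst, binds activins and myostatin outside the cell, while SMAD7 blocks receptor signalling within it.

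The arrays did not sort by their labels. Ckm, the creatine kinase of differentiated muscle, had levels of 10.87 to 11.39 on 9 arrays and of 6.78 to 8.05 on the other 9, and 6 arrays went against their day: day 3 OE 2, OE 3 and Wt 2 had the lower level, and day 0 KO 1, OE 2 and Wt 1 the higher. Top2a, a gene of dividing cells, was low (5.13 to 5.75) on the same 9 arrays on which Ckm was high and high (7.82 to 8.82) on the other 9. Usp18, an interferon-induced gene, reached 9.72 to 12.52 on 6 arrays, namely day 3 Wt 1 and 2 and day 0 KO 2 and 3, OE 2 and Wt 1, against 4.27 to 5.43 on the other 12. The closest array by correlation carried the same label for 7 of 18 arrays, and both of the 2 closest did for 0. All 18 arrays instead fell into 6 sets of 3 mutually closest arrays, each with more than 1 label. The first set was KO 1, KO 2 and Wt 3 of day 3. Day 3 KO 3 and OE 1 joined day 0 KO 1, and day 3 Wt 1 joined day 0 OE 2 and Wt 1. Day 3 OE 2 joined day 0 OE 1 and OE 3. Day 3 OE 3 joined day 0 Wt 2 and Wt 3, and day 3 Wt 2 joined day 0 KO 2 and KO 3. Whether titles and arrays were mixed up cannot be told apart from differences between cultures here, and a mix-up would alter every group difference below. Gata4 itself was detected on 5 of 18 arrays, with levels of 4.24 to 5.32 beside a lowest level of any probe of 4.13, and does not check the labels. The muscle lineage genes Myod1 (10.10 to 11.15) and Des (12.41 to 14.02) were detected on all 18 arrays, whereas Pax7, a satellite cell factor, was detected on 2. Of endothelial markers, Tie1 was detected on 0 arrays, Cdh5 on 1, Pecam1 on 4, Kdr on 5 and Tek, at up to 7.49, on 16. Of immune markers, Ptprc was detected on 0 arrays, Adgre1 on 1, Lyz2 on 3 and Cd14 on 10. The fibroblast markers Thy1 (6.24 to 9.63), Dcn (5.34 to 8.79), Cd34 (4.38 to 7.76) and Col1a1 (4.74 to 7.47) varied widely. Twist2 (5.29 to 7.10) and Pdgfra (4.61 to 5.87) varied less. Col1a1 was lowest on OE 2 of day 3, where Thy1 was highest, so these markers did not all move together. Each group keeps the name that its label gives, and results are also given without the 6 arrays where the comparison allows.

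Promoter sequence was at hand for 6 of the 10 genes (Tgfb1, Tgfb2, Bmp4, Mstn, Id2 and Id3) in RefSeq, build GRCm38.p6. The 250 bases before the annotated start are shown for Id3 and Id2, the ID genes among these, and for Bmp4, the member with the widest range of levels. Each reads 5′ to 3′ on the strand of its gene, at chr4:136143572-136143821 (plus strand) for Id3, chr12:25096093-25096342 (minus strand) for Id2 and chr14:46390670-46390919 (minus strand) for Bmp4. Capitals mark the SMAD core CAGAC on either strand, the palindrome GGCGCC bound by BMP SMADs, and the E-box CANNTG, of which the muscle form CAGCTG is one case.
Id3: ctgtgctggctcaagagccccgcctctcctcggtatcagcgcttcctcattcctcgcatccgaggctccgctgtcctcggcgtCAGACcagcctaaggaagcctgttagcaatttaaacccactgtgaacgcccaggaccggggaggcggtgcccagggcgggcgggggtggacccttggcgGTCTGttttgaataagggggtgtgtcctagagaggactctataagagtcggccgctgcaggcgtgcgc
Id2: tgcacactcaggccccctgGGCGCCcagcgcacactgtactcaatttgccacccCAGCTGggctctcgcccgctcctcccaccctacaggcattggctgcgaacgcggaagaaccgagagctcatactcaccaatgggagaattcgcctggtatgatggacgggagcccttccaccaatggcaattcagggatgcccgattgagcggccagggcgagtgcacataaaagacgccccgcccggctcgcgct
Bmp4: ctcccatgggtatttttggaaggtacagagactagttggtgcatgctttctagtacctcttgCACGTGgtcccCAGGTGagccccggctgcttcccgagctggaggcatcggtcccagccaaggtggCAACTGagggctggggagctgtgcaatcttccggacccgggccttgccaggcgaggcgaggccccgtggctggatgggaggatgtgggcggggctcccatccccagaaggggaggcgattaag
The Id3 window held 2 matches to CAGAC and no E-box. The Id2 window held 1 GGCGCC and 1 CAGCTG, and the Bmp4 window 3 matches to CANNTG. Over the 32851 promoter windows of this length in the table, 42.2% held CAGAC, 9.59% GGCGCC, 13% CAGCTG and 66.2% CANNTG on either strand. Of the windows not shown, those of Mstn and Tgfb2 held 2 matches to CAGAC each and that of Tgfb1 none. A match describes the letters only.

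Levels of most of these genes differed widely between arrays. The distance from the lowest to the highest array was 2 or more on the log2 scale for 7 of the 8 detected genes (87.5%), against 14.9% of the 11921 genes tested. The median distance was 2.12 for the 8 genes and 1.16 for all genes. The labelled groups accounted for a median of 25.6% of the variance over arrays for the 8 genes and 32.4% for all genes, with values between 11.4% for Fst and 41.9% for Tgfb1. Most of the spread of these genes therefore lay between arrays of the same label.

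**Figure D1:**
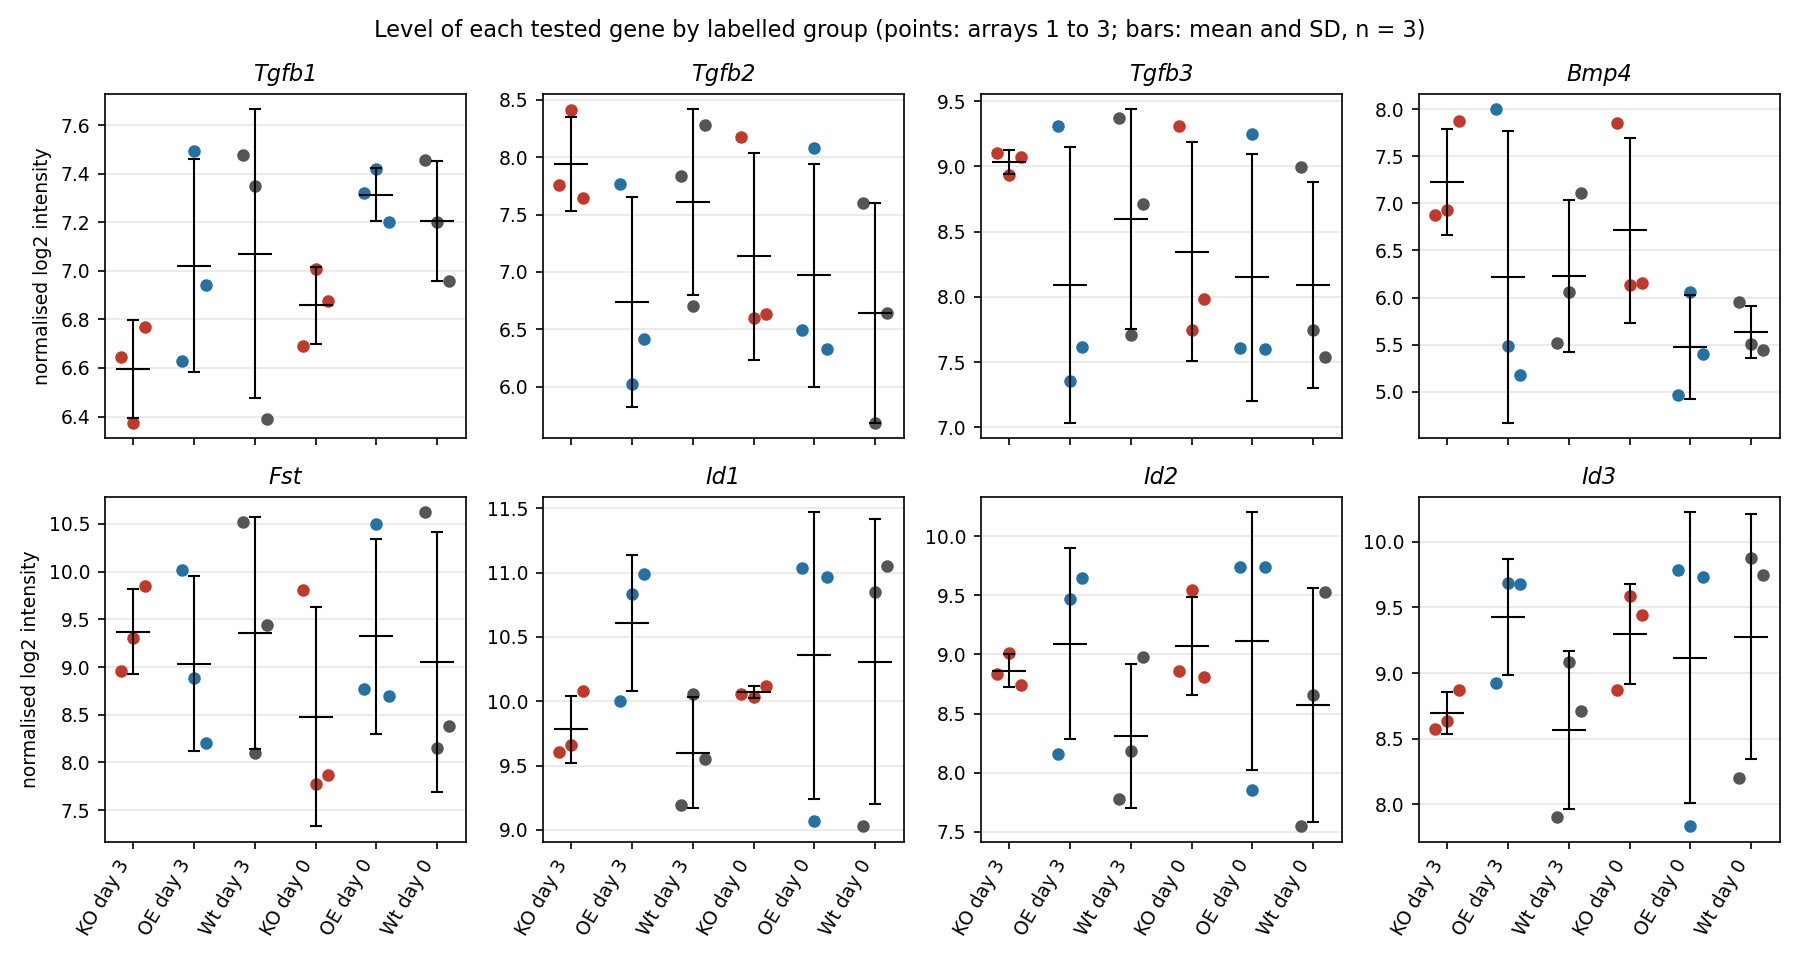
Normalised log2 intensity (vertical axis) of the 8 detected genes in the 6 labelled groups, with 1 point per array and bars for the mean and SD (n = 3). For Tgfb3, 1 array stands apart from the other 2 in each group but KO day 3, as in Wt day 0, where 1 array is at 9.0 and the others at 7.74 and 7.53.

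Tgfb1, the most widely studied TGF-beta, was measured by 1 probe and varied least of the detected genes. At day 3 its levels were 6.64, 6.37 and 6.77 for KO, 6.63, 7.49 and 6.94 for OE, and 7.48, 7.35 and 6.39 for Wt. At day 0 they were 6.69, 7.01 and 6.88 in KO, 7.32, 7.42 and 7.20 in OE, and 7.45, 7.20 and 6.96 in Wt. Of the 6 KO arrays, 5 were below the median of the 18 arrays, 6.98, but KO and Wt overlapped at both days. The highest array was 2.17-fold above the lowest, a distance at the 46.9th percentile of all genes.

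Tgfb2, a ligand that needs the co-receptor betaglycan for efficient receptor binding, spanned 6.61-fold. At day 3 its levels were 7.76, 8.41 and 7.65 in KO, 7.77, 6.02 and 6.42 in OE, and 7.84, 6.71 and 8.28 in Wt. At day 0 they were 8.18, 6.60 and 6.63 in KO, 6.5, 8.08 and 6.33 in OE, and 7.60, 5.68 and 6.65 in Wt. Its widest gap between neighbouring arrays, from 6.71 to 7.60, split the arrays into 9 high and 9 low ones, though under median scaling its widest gap lay elsewhere. The high ones were all 3 KO arrays of day 3 with OE 1, Wt 1 and Wt 3 of that day, and KO 1, OE 2 and Wt 1 of day 0.

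Tgfb3, the third TGF-beta ligand, was split the same way. Its day 3 levels were 9.10, 8.93 and 9.07 in KO, 9.31, 7.36 and 7.61 in OE, and 9.37, 7.70 and 8.71 in Wt. Its day 0 levels were 9.31, 7.75 and 7.98 in KO, 7.61, 9.24 and 7.60 in OE, and 9.0, 7.74 and 7.53 in Wt. Its widest gap lay between 7.98 and 8.71, with the same 9 arrays above it as for Tgfb2. These are also the 9 arrays with Ckm at 10.87 or more and Top2a at 5.75 or less. The part of differentiation and of cell division in the levels of both ligands was not tested.

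Bmp4, a ligand of the BMP branch, had the widest range of the 10 genes, 8.18-fold. At day 3 its levels were 6.88, 6.93 and 7.87 in KO, 8.0, 5.48 and 5.18 in OE, and 5.52, 6.06 and 7.10 in Wt. At day 0 they were 7.85, 6.14 and 6.16 in KO, 4.97, 6.06 and 5.40 in OE, and 5.95, 5.51 and 5.44 in Wt. Its highest levels, 7.85 to 8.0, were on 3 arrays of 3 different labels, KO 3 and OE 1 of day 3 and KO 1 of day 0, and the other 15 arrays reached at most 7.10. The day 0 KO arrays were all above the day 0 Wt arrays. A second Bmp4 probe was detected on no array, with raw intensities of 87.9 to 104.6, so the pattern rests on 1 probe.

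Mstn encodes myostatin, the secreted limiter of muscle mass in mice and other mammals. Its single probe had raw intensities between 82.2 and 108 and a smallest detection p-value of 0.097. Its normalised levels of 4.17 to 4.59 lie close to the lowest level of any probe, so they have no order between groups, and no difference is given.

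Fst, the gene of the myostatin and activin antagonist follistatin, was well measured and spanned 7.21-fold. At day 3 its levels were 8.96, 9.31 and 9.85 in KO, 10.02, 8.89 and 8.20 in OE, and 10.52, 8.10 and 9.44 in Wt. At day 0 they were 9.80, 7.77 and 7.87 in KO, 8.77, 10.50 and 8.70 in OE, and 10.62, 8.15 and 8.38 in Wt. Wt 1 of day 3, with OE 2 and Wt 1 of day 0, had the 3 highest levels, 10.50 to 10.62. In KO and Wt of day 0 the first array stood far above the others of its group.

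Smad7, the inhibitory SMAD that TGF-beta signalling itself induces, was not detected on any array. Its probe had raw intensities of 79.6 to 101 and a smallest detection p-value of 0.15, so this negative feedback gene could not be followed at this signal.

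Id1, the first of the 3 ID genes, spanned 4.05-fold. At day 3 its levels were 9.60, 9.66 and 10.08 in KO, 10.01, 10.84 and 10.99 in OE, and 9.19, 10.05 and 9.55 in Wt. At day 0 they were 10.06, 10.03 and 10.12 in KO, 11.03, 9.07 and 10.96 in OE, and 9.03, 10.85 and 11.05 in Wt. Day 0 KO arrays lay between 10.03 and 10.12, while the OE and Wt arrays of that day each held 1 array near 9 and 2 near 11. The widest gap, from 10.12 to 10.84, set 6 arrays above the rest: OE 2 and 3 of day 3, and OE 1 and 3 and Wt 2 and 3 of day 0.

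Id3, which encodes a protein of the same inhibitory family, followed Id1 closely. Its day 3 levels were 8.58, 8.64 and 8.87 in KO, 8.92, 9.68 and 9.68 in OE, and 7.90, 9.08 and 8.71 in Wt. Its day 0 levels were 8.87, 9.59 and 9.44 in KO, 9.78, 7.84 and 9.73 in OE, and 8.20, 9.88 and 9.75 in Wt. All 6 arrays highest in Id1 were also the 6 highest in Id3, at 9.68 to 9.88, and the 3 lowest arrays were the same for both genes. The root mean square difference between their median-centred profiles over the 18 arrays was 0.23, and of all 11921 genes each was the closest to the other.

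Id2, the third of them, was measured by 3 detected probes. The brightest, which stands for the gene, had day 3 levels of 8.83, 9.01 and 8.75 in KO, 8.16, 9.47 and 9.64 in OE, and 7.77, 8.18 and 8.98 in Wt. Its day 0 levels were 8.86, 9.55 and 8.81 in KO, 9.74, 7.85 and 9.74 in OE, and 7.55, 8.65 and 9.53 in Wt. As for Id1 and Id3, the 3 lowest arrays were Wt 1 of day 3 and OE 2 and Wt 1 of day 0, but the order of the rest differed. The second probe ranged from 6.43 to 8.65 on 18 arrays, and the third from 4.63 to 6.53 with 17 arrays detected. The probes disagreed in KO against Wt at day 0, where the first put KO 0.49 above Wt and the others put it 0.21 and 0.19 below, each with a standard error of 0.45 to 0.56.

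**Figure D2:**
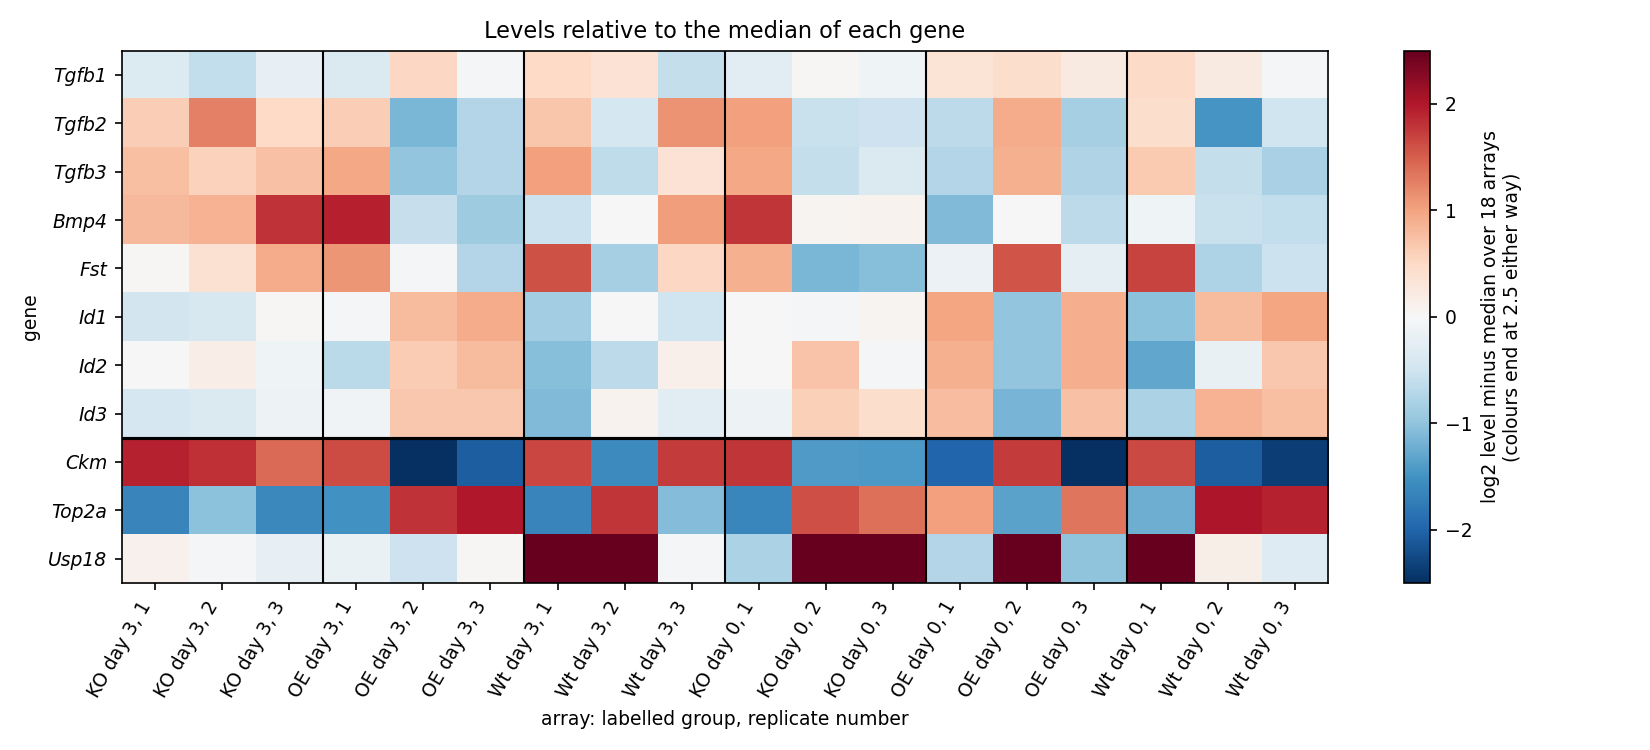
Log2 level minus the median of the gene over the 18 arrays (colour, red above and blue below the median) for the 8 detected genes and for Ckm, Top2a and Usp18, with arrays ordered by label. Tgfb2 and Tgfb3 share the colour of Ckm on every array, and Id3 has the opposite one, most faintly on OE 1 and Wt 2 of day 3.

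Set beside Ckm, the genes fell into several patterns. This is a description with no test, since arrays were sorted by a measured level. On the 9 arrays with high Ckm, Tgfb2 ranged from 7.60 to 8.41, against 5.68 to 6.71 on the 9 with low Ckm, and Tgfb3 from 8.71 to 9.37, against 7.36 to 7.98. Fst ranged from 8.96 to 10.62 with high Ckm and from 7.77 to 8.89 with low Ckm. Id3 ran the other way, from 7.84 to 8.92 with high Ckm and from 9.08 to 9.88 with low Ckm. Thus 4 of the 8 genes did not overlap between the sets of arrays, beside a background of 20.1% of all genes tested. The same 4 did not overlap under other background corrections, under median scaling or in the authors' processed values.

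Id1, Id2, Bmp4 and Tgfb1 overlapped between the 2 sets. With high Ckm, Id1 ranged from 9.03 to 10.08 and Id2 from 7.55 to 9.01, against 10.03 to 11.05 and 8.18 to 9.74 with low Ckm. Bmp4 ranged from 5.52 to 8.0 with high Ckm and from 4.97 to 6.16 with low Ckm, and Tgfb1 from 6.37 to 7.48 with high and from 6.88 to 7.49 with low Ckm. The 6 arrays with Tgfb1 at 6.77 or less were those with high Ckm and low Usp18.

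Within each of these sets the arrays also differed in Usp18. The 3 arrays high in both Ckm and Usp18 (Wt 1 of day 3, OE 2 and Wt 1 of day 0) had Id1 at 9.03 to 9.19, Id3 at 7.84 to 8.20 and Fst at 10.50 to 10.62. The 6 arrays high in Ckm and low in Usp18 had Id1 at 9.55 to 10.08, Id3 at 8.58 to 8.92 and Fst at 8.96 to 10.02. The 3 arrays low in Ckm and high in Usp18 (Wt 2 of day 3, KO 2 and 3 of day 0) had Id1 at 10.03 to 10.12, Id3 at 9.08 to 9.59 and Fst at 7.77 to 8.10. The 6 arrays low in both had Id1 at 10.84 to 11.05, Id3 at 9.68 to 9.88 and Fst at 8.15 to 8.89. At a given Ckm level, Id1 and Id3 were thus lower on every array with high Usp18 than on every array with low Usp18. At each Ckm level the 3 arrays with high Usp18 were 1 of the mutually closest sets, so these arrays are not separate evidence. Id2 was separated by Usp18 only with high Ckm (7.55 to 7.85 with high Usp18, 8.16 to 9.01 with low), and Tgfb2 and Tgfb3 overlapped in both Ckm sets. The share of all genes separated by Usp18 in this way was not computed. These patterns, and those of Bmp4 and Tgfb1 below, are therefore not set apart from those of other genes.

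The ligands Bmp4 and Tgfb1 also differed with Usp18. Among the arrays with high Ckm, Bmp4 was 5.52 to 6.06 with high Usp18 and 6.88 to 8.0 with low Usp18, and Tgfb1 was 7.42 to 7.48 with high and 6.37 to 6.77 with low Usp18. Among the arrays with low Ckm, Bmp4 ran the other way, at 6.06 to 6.16 with high Usp18 and 4.97 to 5.51 with low Usp18, and Tgfb1 overlapped, at 6.88 to 7.35 with high and 6.94 to 7.49 with low Usp18. The 3 arrays high in both Ckm and Usp18 were among the 6 with Tek at 6.89 to 7.49, Cd34 at 6.88 to 7.76 and Tgfbr1 at 9.96 to 10.58, so a pattern on these arrays cannot be tied to Usp18. The part of the interferon-induced genes in these levels was not tested.

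**Figure D3:**
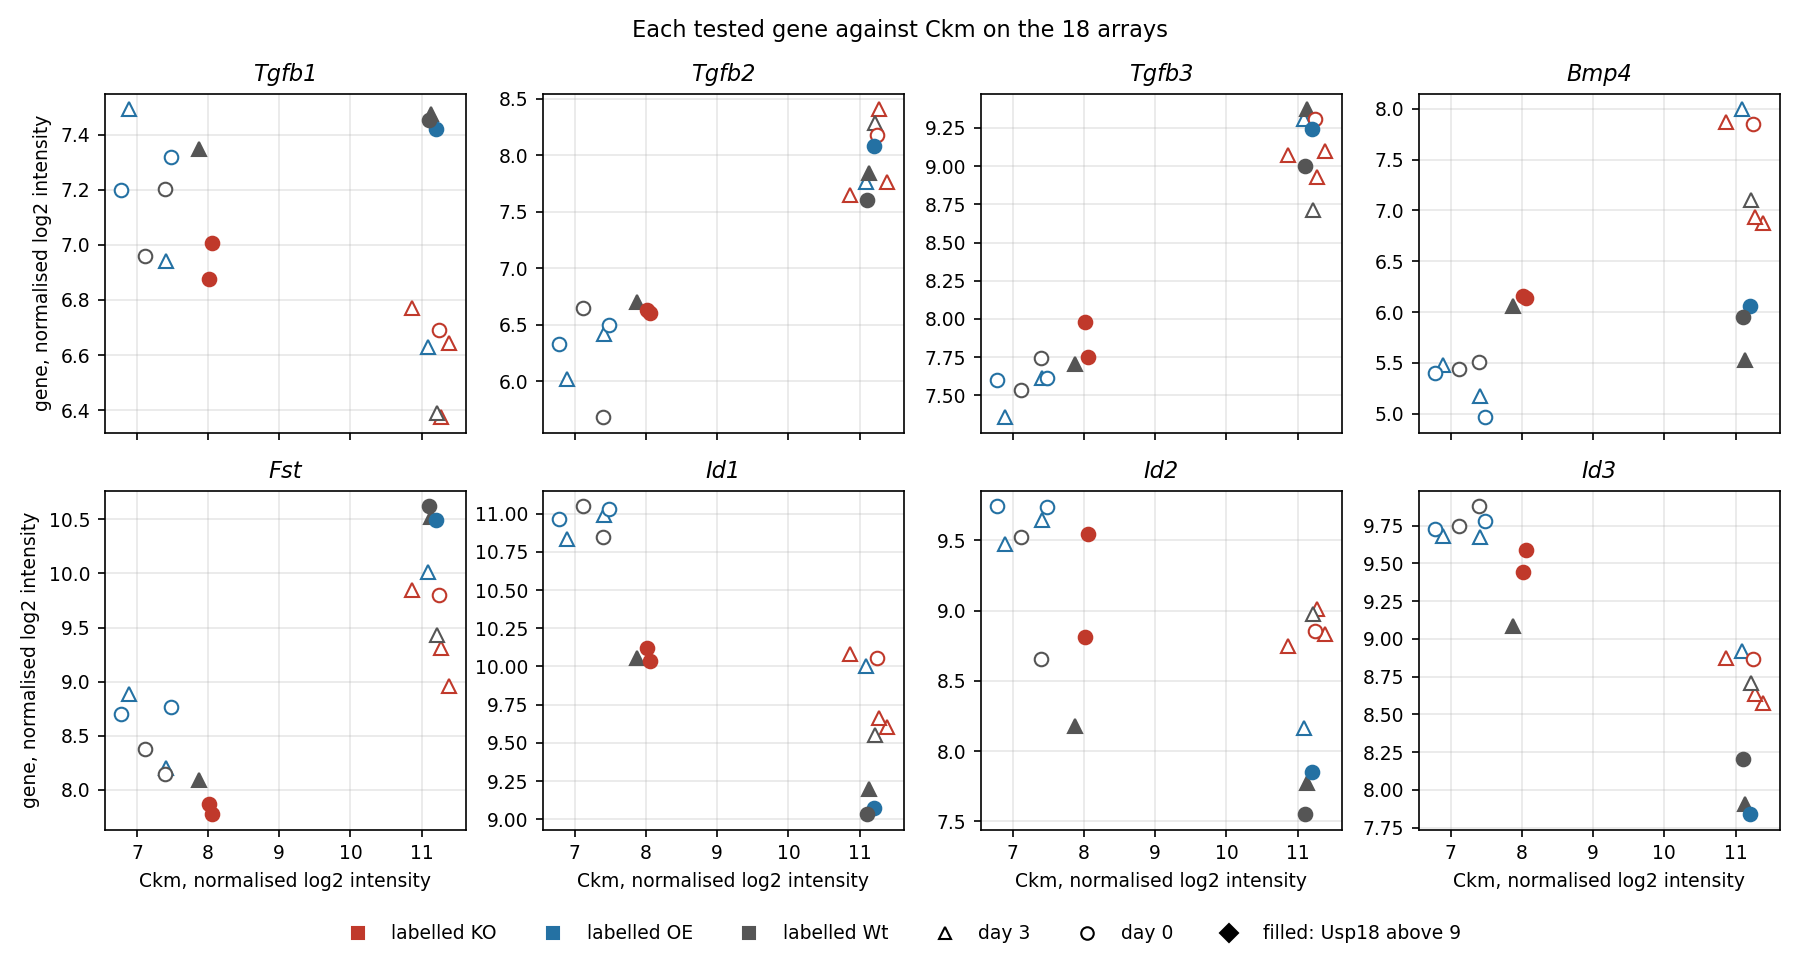
Each detected gene (vertical axis, normalised log2 intensity) against Ckm (horizontal axis, normalised log2 intensity) on the 18 arrays, with colour for the label, triangles for day 3, circles for day 0 and filled points for Usp18 above 9. Arrays form a low and a high cluster in Ckm with labels mixed in both, and Id1 and Id3 are lowest on the filled points of the high cluster, at 9.03 to 9.19 and 7.84 to 8.20.

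Other genes with profiles like these were looked up for the 7 genes with a log2 range of 2 or more, by the root mean square difference between median-centred log2 profiles over the 18 arrays. After Id3, Id1 was closest to Csrp2, a LIM domain protein gene (0.27), and Echdc2 (0.27). After Id1, Id3 was closest to Cdk4, a G1 cyclin-dependent kinase gene (0.24), and Srsf6, a splicing factor gene (0.25). Id2 was nearest to Ftl1 (0.34), Gclm (0.37) and Hmox1 (0.38), which encode ferritin light chain, a subunit of the glutathione-synthesising ligase and heme oxygenase. Tgfb2 was nearest to Parp3 (0.21), Tns1 (0.24) and Zfp322a (0.24), and Tgfb3 to Tspan33, Myo18a and Tmem62 (0.19 each). Bmp4 was nearest to Sh3rf2 (0.37), Slc40a1 (0.38) and Mmp3 (0.40), and Fst to Trp53inp2 (0.26), Itgb6 (0.27) and Tph1 (0.28). The list does not weigh what the arrays share in differentiation, division or interferon-induced genes.

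By its label, KO against Wt addressed the loss of GATA4 in growing cells (day 0) and in differentiating cells (day 3). At day 0, 0 of the 8 genes passed a limma adjusted p of 0.05 over 11921 genes and 0 had an unadjusted p below 0.05, against 0% and 6.4% of all genes. Bmp4 averaged 6.71 in KO and 5.63 in Wt at day 0, a difference of 1.08 ± 0.66 (SE, limma adjusted p = 0.86). It was the 1 gene of the 8 whose KO and Wt arrays did not overlap at day 0, where 10.3% of all genes did not. Without KO 1, which has the Ckm level of differentiated arrays, the Bmp4 difference was 0.51. Fst averaged 8.48 in KO and 9.05 in Wt, a difference of -0.57 ± 0.78 (limma adjusted p = 1.00) that turned to 0.22 without Wt 1.

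At day 3, Bmp4 averaged 7.23 in KO and 6.23 in Wt, a difference of 1.00 ± 0.66 (SE, limma adjusted p = 0.94). Id2 averaged 8.86 in KO and 8.31 in Wt, a difference of 0.55 ± 0.56 with the same limma adjusted p. None of the 8 genes passed the adjusted or the unadjusted threshold (background 0% and 2.29%), and 0 had groups that did not overlap (background 9%). The third Id2 probe, which does not stand for the gene, did not overlap there, with KO 0.43 ± 0.45 above Wt.

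Without the 6 arrays that went against their day, Id1 was lower in KO than in Wt at day 0. It had levels of 10.03 and 10.12 on KO 2 and 3, against 10.85 and 11.05 on Wt 2 and 3, and fell by 0.87 ± 0.20 on the log2 scale (limma adjusted p = 0.031). It was the 1 gene of the 8 past the threshold there, against a background of 4.65% of all genes. The 6 arrays were left out by their Ckm level, with which Id1 also varied, so this p-value may be too small. The same KO arrays had Usp18 at 12.41 and 12.40, against 5.43 and 4.96 on the Wt arrays, and the part of the interferon-induced genes in this difference was not tested. Wt 2 of day 3, also high in Usp18 and low in Ckm, had Id1 at 10.05. With all arrays the Id1 difference was -0.24 ± 0.53. At day 3 without these arrays, 0 of the 8 genes and 0% of all genes passed in limma, and 2 of the 8 (Bmp4 and Id1) had an unadjusted p below 0.05, against 6.58% of all genes. Both were higher in KO there, Bmp4 by 0.91 ± 0.40 and Id1 by 0.41 ± 0.18, so Id1 went the opposite way to day 0.

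By its label, OE against Wt addressed the gain of GATA4. The Gata4 probe, near background, was not higher in OE. It averaged 4.56 in OE and 5.02 in Wt at day 0, and 4.41 in OE and 4.67 in Wt at day 3. In KO it averaged 4.48 at day 0 and 4.50 at day 3. At day 0 the largest differences were those of Id2, with a mean of 9.11 in OE and 8.58 in Wt (0.53 ± 0.56, SE), and Tgfb2, with 6.97 in OE and 6.64 in Wt (0.33 ± 0.63), each with a limma adjusted p of 1.00. Id2 was 0.021 without Wt 1 and 1.17 without OE 2, and Tgfb2 turned to -0.23 without OE 2 and to -0.15 without Wt 2. None of the 8 genes passed the adjusted or the unadjusted threshold (background 0% and 5.13%), and 0 had groups that did not overlap (background 11%). Without the 6 arrays, 0 of the 8 genes passed in limma, where 3.89% of all genes did, and 0 had an unadjusted p below 0.05, against 20.6% of all genes.

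At day 3, Id1 averaged 10.61 in OE and 9.60 in Wt, a difference of 1.01 ± 0.53 (SE, limma adjusted p = 0.92), with an unadjusted p of 0.076. Tgfb2 averaged 6.74 in OE and 7.61 in Wt, a difference of -0.87 ± 0.63 with the same limma adjusted p. The OE arrays 2 and 3, which were highest in Id1 and low in Tgfb2, were those with Ckm at 6.89 and 7.40 and Top2a at 8.60 and 8.79, and the part of differentiation in these differences was not tested. Of the 8 genes 0 passed the adjusted or the unadjusted threshold (background 0% and 3.95%), and 0 had groups that did not overlap (background 5.55%). The second Id2 probe, which does not stand for the gene, did not overlap there. It put OE 1.01 ± 0.49 above Wt, beside 0.78 ± 0.56 for the brightest Id2 probe. Without the 6 arrays OE keeps 1 array, assumed to vary like the others, and Bmp4 was then 1.68 ± 0.54 above Wt (limma adjusted p = 0.39), while 0 of the 8 genes and 0% of all genes passed, and 2 of the 8 (Bmp4 and Id1) had an unadjusted p below 0.05, against 10.6% of all genes.

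Day 3 against day 0 addressed differentiation within each label. In Wt, Tgfb2 averaged 7.61 at day 3 and 6.64 at day 0, a difference of 0.96 ± 0.63 (SE, limma adjusted p = 0.90). Id3 averaged 8.57 at day 3 and 9.28 at day 0, a difference of -0.71 ± 0.51 with the same limma adjusted p. Tgfb2 was 0.49 without Wt 2 of day 0, and Id3 was -0.38 without Wt 1 of day 3 and -1.25 without Wt 1 of day 0. None of the 8 genes passed the adjusted or the unadjusted threshold (background 0% and 3.99%), and 0 had groups that did not overlap (background 6.97%). With array weights, which give less weight to arrays far from their group mean, Id1 fell by 1.37 ± 0.36 and Id3 fell by 1.31 ± 0.36 (limma adjusted p = 0.0497 each), 2 of 8 genes against 5.56% of all genes.

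In KO, Fst averaged 9.37 at day 3 and 8.48 at day 0, a difference of 0.89 ± 0.78 (SE, limma adjusted p = 0.57), and Tgfb2 averaged 7.94 at day 3 and 7.14 at day 0, a difference of 0.80 ± 0.63 (limma adjusted p = 0.54). None of the 8 genes passed the adjusted or the unadjusted threshold (background 0% and 8.32%), and 0 had groups that did not overlap (background 17.2%). With array weights 5 of the 8 passed, beside a background of 52.6% of all genes, which the count does not clearly exceed. These were Tgfb2 (1.35 ± 0.31), Fst (1.27 ± 0.34), Tgfb3 (1.04 ± 0.26), Bmp4 (0.77 ± 0.31) and Id3 (-0.82 ± 0.23), with limma adjusted p of 0.0018 for Tgfb2 and 0.047 for Bmp4 at either end. Each of the first 4 was higher at day 3, and Id3 was lower.

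In OE, Bmp4 averaged 6.22 at day 3 and 5.48 at day 0, a difference of 0.74 ± 0.66 (SE, limma adjusted p = 1.00) that turned to -0.15 without OE 1 of day 3. Id3 averaged 9.43 at day 3 and 9.12 at day 0, a difference of 0.31 ± 0.51 with the same limma adjusted p, and it turned to -0.33 without OE 2 of day 0. Of the 8 genes 0 passed the adjusted or the unadjusted threshold (background 0% and 4.57%), and 0 had groups that did not overlap (background 10.7%). The comparisons between days share arrays with those between labels, and they were not run without the 6 arrays, since that would choose arrays by Ckm itself.

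The change from day 0 to day 3 was also compared between labels. The KO change exceeded the Wt change by 0.59 ± 1.11 (SE) for Fst and by 0.42 ± 0.75 for Id1, each with a limma adjusted p of 1.00. Fst turned to -0.20 without Wt 1 of day 0, and Id1 was 0.05 without Wt 3 of day 0 and 1.06 without Wt 1 of day 0. The OE change minus the Wt change was -1.20 ± 0.89 for Tgfb2 (limma adjusted p = 0.86) and 1.02 ± 0.73 for Id3 (limma adjusted p = 0.85). Without OE 2 of day 0 these were -0.64 for Tgfb2 and 0.38 for Id3, and without Wt 1 of day 0 Id3 was 1.56. In neither comparison did any of the 8 genes pass the adjusted threshold (background 0% in both) or the unadjusted one (background 3.58% for KO and 6.17% for OE). The standard errors, 0.38 for Tgfb1 to 1.11 for Fst, leave room for sizeable differences of either sign.

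**Figure D4:**
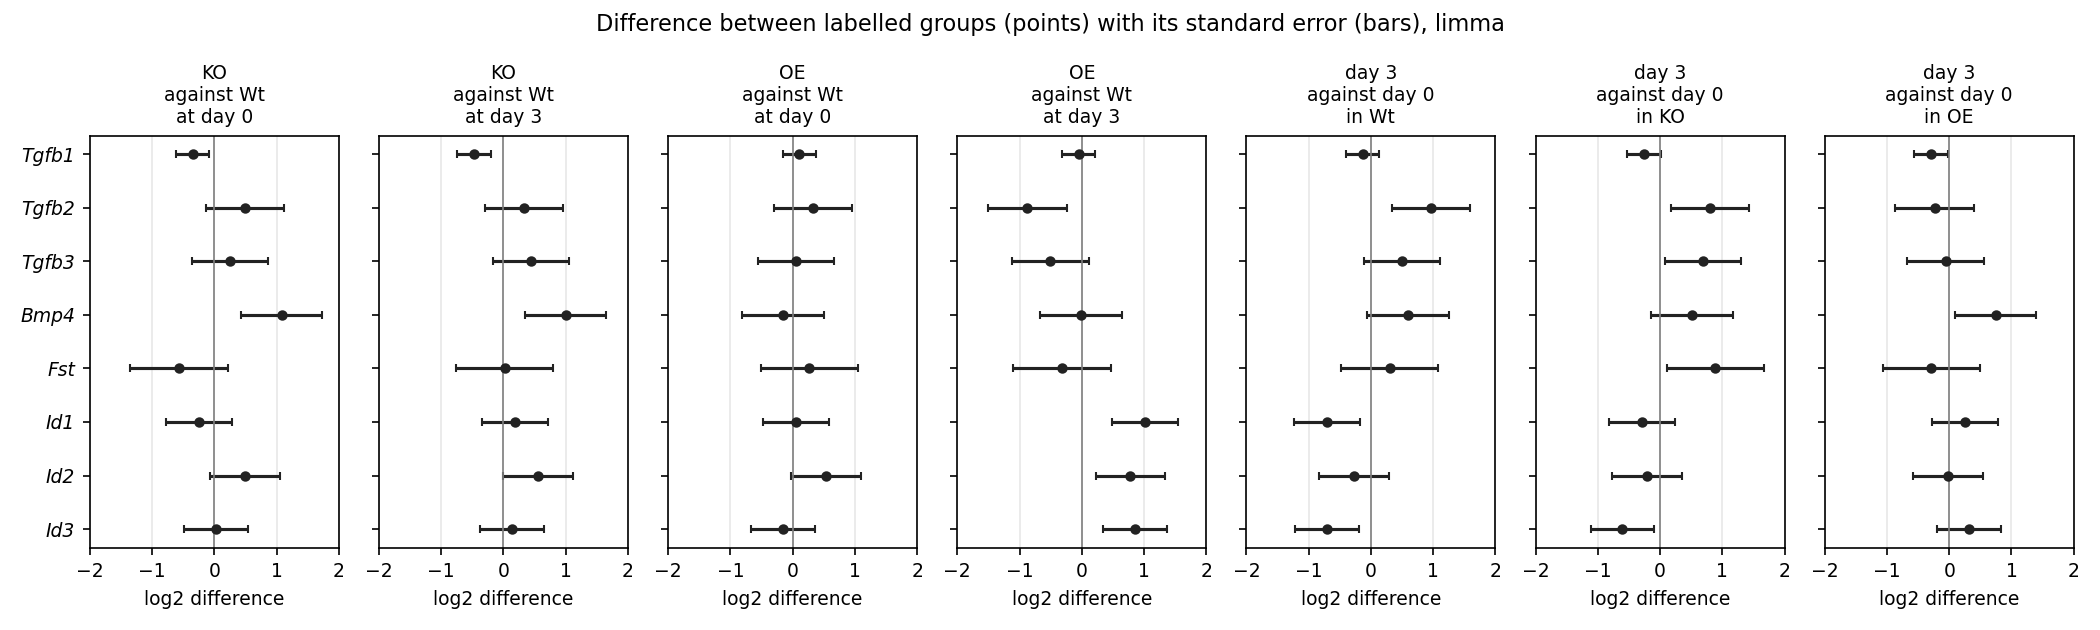
Log2 difference between labelled groups (points, first group minus second) with its standard error (bars) from limma, for the 8 detected genes in 7 comparisons. Bmp4 in KO against Wt (1.08 ± 0.66 at day 0) and Id1 in OE against Wt at day 3 (1.01 ± 0.53) are the most distant from 0, and none of the 8 genes passed the threshold in any of the 7.

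The other genes of the pathway were followed through 6 lists, of which 68 genes were tested. None of the 68 was past the adjusted threshold in any of the 9 comparisons. At an unadjusted p below 0.05, 2 were higher and 4 lower in KO than in Wt at day 0 (8.82% of the 68, against 6.4% of all genes), and 3 were lower at day 3 (4.41%, against 2.29%). In OE against Wt, 4 were higher and 1 lower at day 0 (7.35%, against 5.13% of all genes), and 2 were higher and 1 lower at day 3 (4.41%, against 3.95%). At day 3 against day 0, the counts were 3 lower in Wt (4.41%, against 3.99% of all genes), 1 higher and 4 lower in KO (7.35%, against 8.32%), and 2 lower in OE (2.94%, against 4.57%). For the change over time, 3 were lower in KO than in Wt (4.41%, against 3.58% of all genes), and 1 was higher and 4 lower in OE than in Wt (7.35%, against 6.17%). These shares lie near those of all genes.

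Among the other ligands, 8 of the 14 on the array were tested and 3 were detected on no array. Inha, the inhibin alpha subunit, ranged from 4.82 to 8.58, Lefty1 from 4.66 to 6.28, Bmp1, a procollagen protease that also frees BMPs from chordin, from 8.41 to 9.95, and Inhba, the activin A subunit, from 6.72 to 8.04. Among 14 tested receptors and co-receptors, the BMP co-receptor gene Rgma ranged from 5.91 to 9.48, the TGF-beta type I receptor gene Tgfbr1 from 8.37 to 10.58, the co-receptor gene Hjv from 5.10 to 7.22 and the BMP type I receptor gene Bmpr1b from 6.18 to 7.99. Receptors of both branches were thus measured in these cells.

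Of 16 tested genes for secreted binders and latency proteins, 8 spanned 2 or more on the log2 scale, the most of any of the 6 lists. Dcn, a matrix proteoglycan that binds TGF-beta, ranged from 5.34 to 8.79, and Ltbp1, which anchors latent TGF-beta in the matrix, from 6.34 to 9.07. Fstl1 ranged from 5.66 to 8.25 and Bmper, a BMP-binding protein gene, from 6.12 to 8.70. Among 13 SMADs and intracellular regulators, Pmepa1, a TGF-beta target that restrains SMAD signalling, ranged from 5.68 to 7.74, the corepressor gene Tgif1 from 8.0 to 9.82, the corepressor gene Ski from 6.54 to 7.89 and the inhibitory Smad6 from 4.96 to 6.27. The median range was 2.05 for the binders and 1.08 for the SMADs and regulators, beside 1.16 for all genes.

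Of 14 other response genes, Tagln ranged from 4.22 to 6.73, Ccn2, the connective tissue growth factor gene, from 9.30 to 11.69, Gadd45b from 6.79 to 8.70 and Tgfbi from 4.93 to 6.82. The E protein genes whose products bind ID proteins ranged from 4.23 to 5.88 for Tcf3, 7.18 to 8.36 for Tcf12 and 10.42 to 11.53 for Tcf4. Of the 68 genes, 19 did not overlap between the arrays with high and low Ckm, beside the 20.1% of all genes given above. Higher with high Ckm were 11 of them: Inha, Inhba, Rgma, Hjv, Nog, Chrd, Dcn, Pmepa1, Cdkn1a, Tagln and Acta2. Lower were 8: Bmp1, Tgfbr2, Twsg1, Ltbp1, Ltbp4, Smad5, Smurf1 and Tgif1. The BMP antagonist genes Nog (6.88 to 7.77 with high Ckm, 5.49 to 5.88 with low) and Chrd (7.76 to 8.45 with high, 6.03 to 7.07 with low) were thus high on the arrays where Id3 was low. Of other genes for BMP binders, Twsg1 ran the other way (9.26 to 9.65 with high Ckm, 10.16 to 11.37 with low), and Grem1, Nbl1 and Bmper overlapped. No test was made of these patterns.

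**Figure D5:**
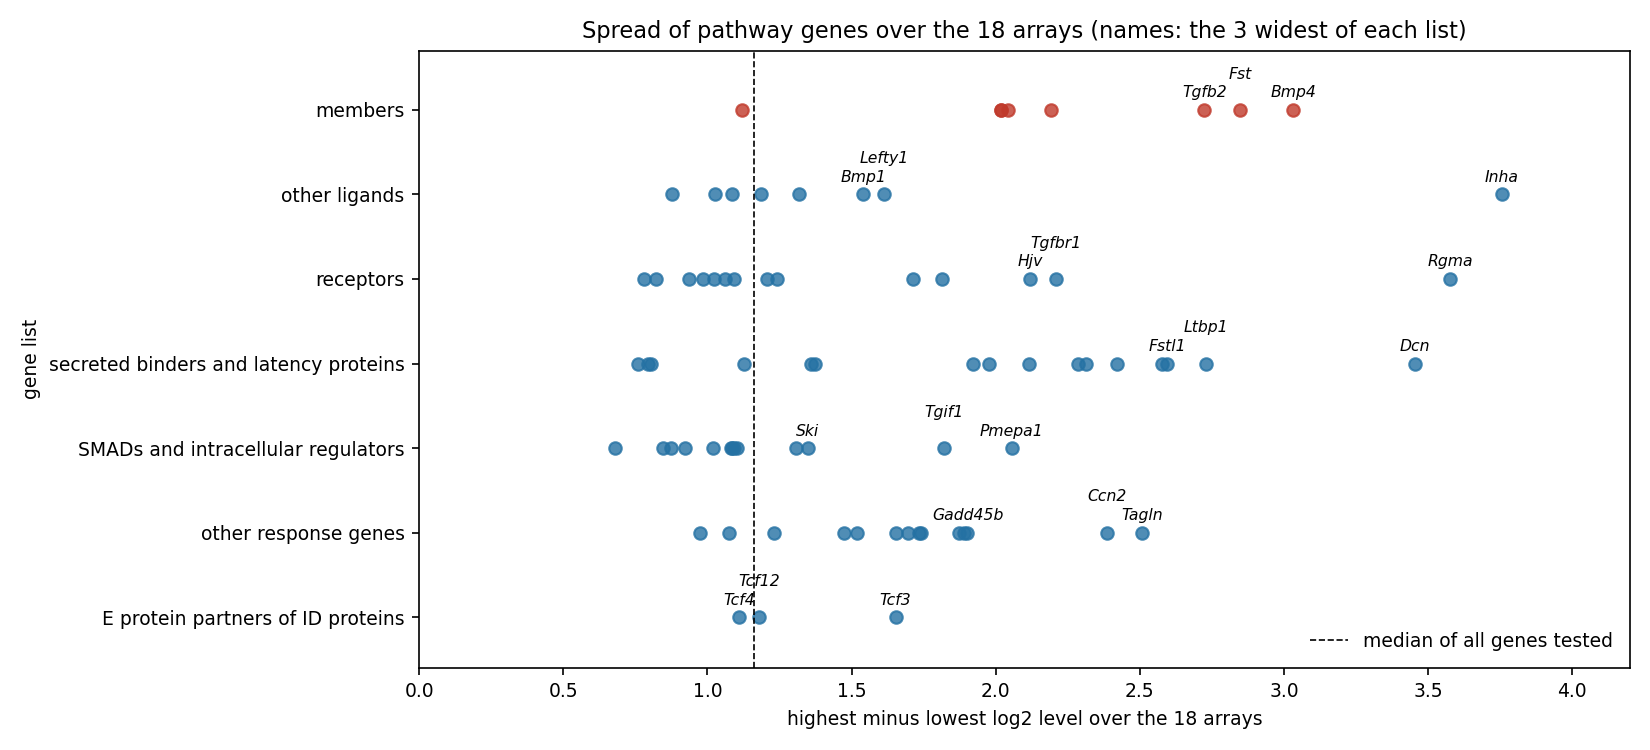
Distance from the lowest to the highest log2 level over the 18 arrays (horizontal axis) for the 8 genes described (top row, members) and for the 68 other pathway genes by list, 1 point per gene, with the 3 widest of each list named. The dashed line is the median of all genes tested, 1.16, and 7 of the 8 genes of the top row lie to its right at 2.02 or more.

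Without the 6 arrays that went against their day, 3 of the 68 genes passed in KO against Wt at day 0 (4.65% of all genes did). Gadd45b, a stress and TGF-beta response gene, rose by 1.79 (limma adjusted p = 0.00013) and Twsg1, a modulator of BMP binding, rose by 1.04 (limma adjusted p = 0.0034) in KO, while Ccn2 fell by 1.5 (limma adjusted p = 0.0012). In OE against Wt at day 0, 6 of the 68 passed (3.89% of all genes). Tgfbr1 (1.49), Dcn (1.45), Bgn (1.28), Id4 (1.17) and Tgif2 (0.96) rose in OE, and Ccn2 fell by 1.78, with limma adjusted p of 0.0345 or less. The same OE arrays were above the same Wt arrays in the fibroblast markers Thy1 (9.35 and 9.36, against 6.44 and 6.24) and Cd34 (7.52 and 7.47, against 5.43 and 5.51) and in Tek (7.31 and 7.40, against 5.32 and 4.81), and Dcn is itself on the fibroblast list. Their part in these differences was not tested. The fibroblast markers Col1a1, Pdgfra and Twist2 were not compared on these arrays, so a difference in fibroblast content cannot be read from Thy1 and Cd34. Each of these fits rests on 2 arrays per group, kept by a measured Ckm level, so the p-values may be too small. In KO against Wt the 2 KO arrays were both high in Usp18.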

How the data were processed

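The members and gene lists were chosen with earlier results of these data known. For 45281 probes and 18 arrays, the deposited non-normalised file holds, per the file headers, linear mean bead intensity values and detection p-values. The authors also deposited processed intensity values, and how these were normalised is not stated in any source used here. Depth does not apply to arrays, and their number limits the precision.

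From the intensity values and p-values deposited, background was corrected with limma 3.58.1 (R 4.3.3) by the neqc method (offset 16, quantile normalisation), giving log2 values. Probes with detection p below 0.05 on at least 3 arrays were kept (22365), of which 19031 had 1 gene symbol, and the brightest stood for each of 11921 genes. Symbols came from the platform annotation (34885 probes with 1, 18 with several, 10378 with none). A linear model of the 6 group means (12 residual degrees of freedom) gave 9 comparisons, adjusted by Benjamini-Hochberg over all genes. The model was also run on simulated data with independent arrays, which do not cover arrays that are alike across labels.

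Named in each comparison were members past the threshold, otherwise the 2 with the largest absolute difference, and for pathway lists the 4 genes with the widest range or any past the threshold. Id1 with all arrays, and the array-wise sets by Ckm and Usp18 with their other scalings, were added for description after their values were seen. Alternatives comprised other background corrections, normalisations, filters and probe rules, the authors' processed values, array weights, a block for the replicate number, the compared groups alone, leaving out each array, and leaving out the 6 arrays against their day. Probe sequences and slide positions were not used here.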

Additional observations from a re-analysis of the deposited data

How the results depend on the processing

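Of 548 recomputed differences of named members, 536 kept direction and side of the threshold, 3 passed it and 9 changed sign. Many of these could not move, as when the array left out belonged to neither compared group, so the 536 do not measure stability. With array weights, past the threshold were 1055 of all genes and 8 other pathway genes in KO against Wt at day 0, 961 and 7 in OE against Wt at day 0, 663 and 3 with 2 members in Wt between days, 6266 and 41 with 5 members in KO between days, and 134 and 2 in the KO change minus the Wt change, against 0 in each case without weights. Weights favour arrays near their group, so these p-values may be too small. They also turned Id3 between days in OE to -0.097 and Fst in the KO change minus the Wt change to -0.064. Without the 6 arrays against their day, 554 genes, 3 pathway genes and 1 member (Id1) passed in KO against Wt at day 0, and 464 genes and 6 pathway genes in OE against Wt at day 0. Those arrays were left out by a measured level, so these p-values may be too small as well.

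With each array left out in turn, KO against Wt at day 0 called 0 to 10 genes (10 without KO 1), and every other count stayed at 0. Differences ranged from -1.23 to 0.22 for Fst in KO against Wt at day 0, from -0.23 to 0.80 for Tgfb2 in OE against Wt at day 0 (-0.15 without Wt 2), from -0.15 to 1.26 for Bmp4 and from -0.33 to 0.64 for Id3 between days in OE, and from -0.20 to 1.25 for Fst in the KO change minus the Wt change (-0.04 without day 3 Wt 2). Without a change of sign, single arrays moved Bmp4 between 0.64 and 1.43 and Id2 between 0.29 and 0.89 in KO against Wt at day 3, Tgfb2 between -1.39 and -0.51 in OE against Wt at day 3, and Fst between 0.54 and 1.55 and Tgfb2 between 0.53 and 1.32 in KO between days. The cause of each was not tested beyond the array named.

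With the replicate number as a block, 0 members passed in any comparison, as without it, and the replicate block left Bmp4 in KO against Wt at day 0 at 1.08 ± 0.67 (limma adjusted p = 0.86). The numbers share no stated origin, and deviations of same-numbered arrays correlated between -0.73 and 0.79, so they do not pair the samples. Signal limits Mstn, Smad7 and the second Bmp4 probe, which were not above background.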

Other observations

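Several other genes of the pathway fell into separate levels that do not follow the labelled groups. Each split described here keeps the 6 mutually closest sets of 3 arrays whole. The share of all genes split in the same way was not computed, so these genes are not set apart from others. Tgfbr1, the TGF-beta type I receptor gene, had levels of 9.96 to 10.58 on 6 arrays (OE 2 and Wt 1 of day 3, all 3 OE arrays and Wt 1 of day 0), against 8.37 to 9.25 on the other 12. Tek, a receptor gene of endothelium, had 6.89 to 7.49 on the same 6 arrays and 4.58 to 5.64 on the others, and Cd34, a marker of fibroblast-like and progenitor cells, had 6.88 to 7.76 on these 6 and 4.38 to 6.26 on the other 12. Tek was detected on 16 arrays, and of the other endothelial markers Kdr on 5, Pecam1 on 4, Cdh5 on 1 and Tie1 on 0.

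Ccn2, a matricellular response gene, had levels of 9.30 to 9.78 on 6 arrays (OE 2 and Wt 2 of day 3, KO 2 and 3 and OE 1 and 3 of day 0) and of 10.89 to 11.69 on the other 12. Gadd45b had 8.44 to 8.70 on 3 arrays that were also high in Usp18 and low in Ckm (Wt 2 of day 3, KO 2 and 3 of day 0), against 6.79 to 7.74 on the other 15. Inha, the inhibin alpha subunit gene, had 8.24 to 8.58 on the 3 arrays highest in Fst and lowest in Id1 and Id3, against 4.82 to 6.94 on the other 15. These values are given without a test, since the arrays were sorted by measured levels.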
